A study of Mus musculus with 26 samples.

Results

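Stromal cluster 7 is 1 of the 4 clusters of stromal cells that the study's clustering of mouse RPE/choroid scRNAseq data defined, and it was characterised here as a cell population of its own. Its members are the cells to which the deposited metadata give cluster number 7 in either scRNAseq library. They number 343 of 7565 cells in all: 185 of 3637 cells in the B6129PF1/J library (5.09%, exact 95% interval 4.4 to 5.85) and 158 of 3928 cells in the C57BL/6J library (4.02%, interval 3.43 to 4.68). Among stromal cells alone, cluster 7 made up 10.7% (9.25 to 12.2) and 9.0% (7.68 to 10.4), respectively. All counts here are those of the deposited metadata. The published counts are larger in both libraries, for cluster 7 and for all cells, so the cluster described here is not identical to the published one. The other stromal clusters are 5 (1687 cells), 6 (1144 cells) and 8 (320 cells), and the remaining 4071 cells are RPE, endothelial, smooth muscle, melanocyte, hematopoietic and Schwann cells.

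The 2 libraries came from B6129PF1/J and C57BL/6J mice aged 90 d, and each pooled the eyes of 1 male and 1 female. RPE and choroid were scraped from the sclera after the anterior segment and the neural retina had been taken off, and nucleated cells with an intact membrane (Hoechst+ and TO-PRO-3-) were sorted. Each strain therefore has 1 library and no replicate, so no difference between strains or clusters was tested, and the intervals given cover counting error only. Bulk RNAseq of the same series was used for the genes of the cluster: RPE/choroid of Ihh+/+ mice and of IhhiΔEC/ΔiEC mice, which lack Ihh in endothelial cells (3 libraries each), and cultured GLI1+ cells given DMSO or 100 nM SAG for 24 h (3 libraries each). In the Ihh experiment all mice were 6 months old, 12 weeks past tamoxifen, and carried the endothelial Cdh5-PAC-CreERT2 transgene, so the groups differ in the floxed Ihh allele. The GLI1+ cells were sorted by GFP and expanded in culture from Gli1GFP/+ mice. Their strain is given as SWR/J, which carries an inherited photoreceptor degeneration that the study removed by outcrossing to BALB/c mice, and SAG is an agonist of Smoothened.

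Fibroblasts build and maintain the connective tissue between the vessels of the choroid and toward the sclera. Fibrillar collagens give that tissue its tensile strength, small leucine-rich proteoglycans such as decorin bind the fibrils and set their diameter, and matricellular proteins such as COMP and the thrombospondins tie cells to the fibrils. In Hedgehog signaling, a ligand binds PTCH1 and thereby releases Smoothened, and GLI1 is both a transcription factor of the pathway and one of its direct targets.

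The cells of cluster 7 held 849195 UMIs in B6129PF1/J and 587561 in C57BL/6J, with a median of 4318 and 3380.5 UMIs per cell on 1858 and 1647.5 genes. Medians of clusters 5, 6 and 8 were lower, between 2835.5 and 3741 UMIs. The median share of mitochondrial UMIs was 3.93% and 4.32% in cluster 7; clusters 5, 6 and 8 ranged from 2.72% to 3.40%. The libraries shared 22 cell barcodes, 1 of which belonged to a cluster 7 cell of B6129PF1/J and none to one of C57BL/6J. No doublet caller was run. As each library pooled both sexes, cells with UMIs of both the X-inactivation RNA Xist and the Y-linked Ddx3y were counted: 4 of the cluster 7 cells in B6129PF1/J and 1 in C57BL/6J. Levels below are the UMIs of a gene per 10,000 UMIs of a cluster in 1 library.

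Of the 3 marker genes given for the cluster, Col1a1 and Comp were higher than in any other stromal cluster in both libraries, and Gli1 was not. Col1a1 (chromosome 11, 94936224 to 94953042, plus strand in GRCm38), which encodes the main chain of type I collagen, stood at 13.1 in B6129PF1/J and 9.84 in C57BL/6J. The next highest stromal cluster, 8, had 5.82 and 6.05. Comp (chromosome 8, 70373558 to 70382066, plus strand) encodes a pentameric matrix protein of tendon and cartilage and was counted at 0.636 and 0.664, against 0.0628 at most elsewhere in the stroma. It was detected in 25 of 185 and 18 of 158 cells, and in 0 of 106 and 0 of 127 hematopoietic cells (cluster 11), whose median depths were 5047.5 and 3977 UMIs. Gli1 (chromosome 10, 127329882 to 127341974, minus strand) had a level of 0.342 and 0.357, from 29 and 21 UMIs. Cluster 8 reached 0.364 and 0.188 and cluster 5 reached 0.277 and 0.292, so Gli1 did not set cluster 7 apart. In B6129PF1/J 13.5% of cluster 7 cells (8.94 to 19.3) and in C57BL/6J 12.0% (7.40 to 18.1) had a Gli1 UMI, while 0 hematopoietic cells did. With each cell thinned to 1700 UMIs the shares were 5.95% and 6.33%. Gli1 was found in 1 of the 25 Comp cells and 24 of the 160 other cells in B6129PF1/J, and in 3 of the 18 Comp cells and 16 of the 140 other cells in C57BL/6J.

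A gene was counted as higher in cluster 7 when its level there was at least 0.5 per 10,000 and at least 2 times that of each of clusters 5, 6 and 8 in both libraries, with a count of 0 taken as 3 UMIs. By this rule 72 of 2785 genes (2.59%) were higher. The clusters were defined on these same genes, so the list describes the cluster and is no test of it. The 5 genes with the largest smaller fold of the 2 libraries were Myoc, Pi16, Tnmd, Thbs4 and Fmod. Myoc encodes myocilin, the glycoprotein of the trabecular meshwork that is mutated in a form of glaucoma. Its level was 6.82 (B6129PF1/J) and 9.36 (C57BL/6J), against 0.0475 and 0.0419 in cluster 8, a ratio of 144 (interval 48.9 to 699) and 224. Of all Myoc UMIs in the library, 97.3% and 97.5% lay in cluster 7.

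**Figure D1:**
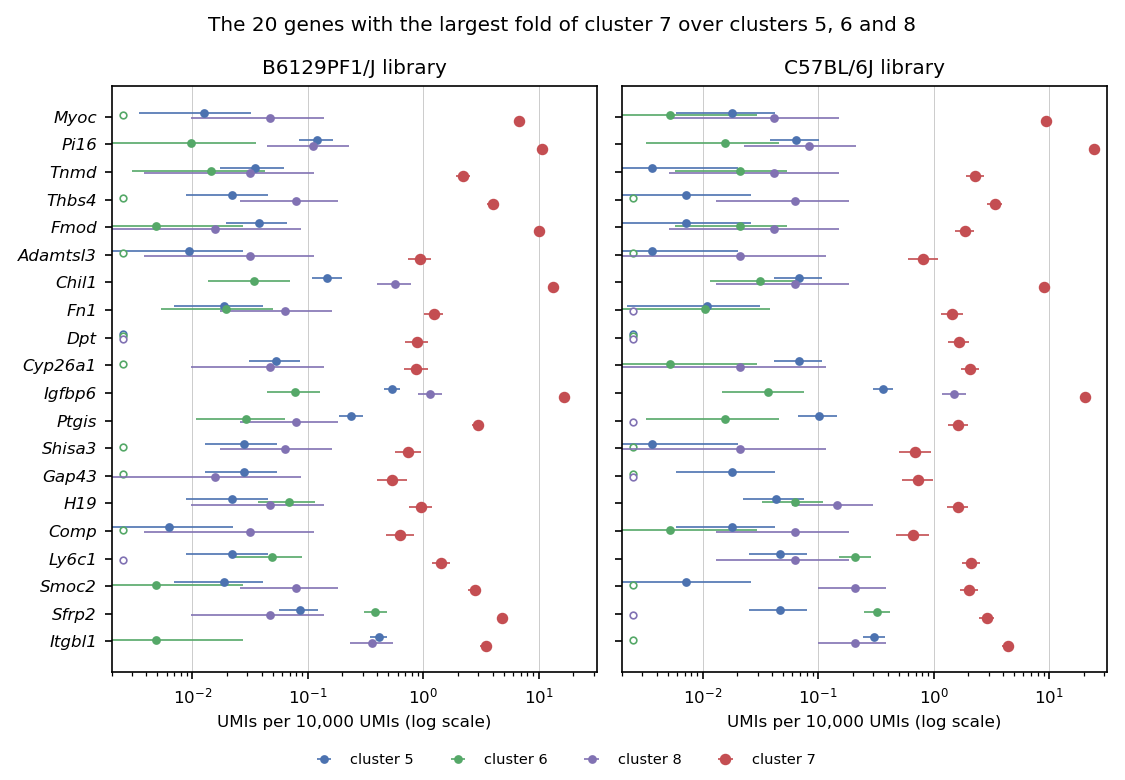
Levels (UMIs per 10,000 UMIs, log scale) of the 20 genes with the largest fold of cluster 7 over the other stromal clusters, 1 panel per library. Points are clusters 5, 6, 7 and 8, bars are exact Poisson 95% intervals, and open points at the left edge stand for 0 UMIs; the red points of cluster 7 lie to the right of all others, from 0.542 for Gap43 to 24.6 for Pi16.

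The peptidase inhibitor gene Pi16 stood at 10.6 and 24.6 in cluster 7 and at most at 0.12 elsewhere in the stroma, but large-vessel endothelial cells (cluster 4) also carried it, at 7.79 and 3.02. Tenomodulin (Tnmd), a membrane glycoprotein of tendon cells, had 2.23 and 2.30. Thbs4, a thrombospondin of tendon and muscle attachment, had 4.0 and 3.39. Fibromodulin (Fmod), a collagen-binding proteoglycan, had 10.1 in B6129PF1/J but 1.87 in C57BL/6J. Dpt, which encodes the collagen-binding dermatopontin, had no UMI in clusters 5, 6 and 8 of either library and 0.883 and 1.65 in cluster 7. These levels are 18.6 and 26.3 times the limit of 3 UMIs in cluster 8, and the intervals of the ratio start at 14.8 and 21.0. Fibronectin (Fn1), the retinoic acid hydroxylase gene Cyp26a1, the IGF-binding Igfbp6, the prostacyclin synthase gene Ptgis and the imprinted H19 were also among the leading 20. Igfbp6 was found in 91.4% and 88.6% of its cells, at levels of 16.7 and 20.7, whereas 2.83% and 2.36% of hematopoietic cells had a UMI.

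Against all other 12 clusters, 35 of 2785 genes (1.26%) were at least 2 times higher in cluster 7 in both libraries. Myoc, Igfbp6, Sfrp2, Itgbl1, 1500015O10Rik, Tnmd, Fmod and Smoc2 led this list, and it also held Dcn, Col1a2, Col11a1, Mfap5 and Dpt. Pi16, Cd34, Ly6a and Ly6c1 were not in it. Ly6c1 is an extreme case, since cluster 7 held only 5.07% and 4.43% of its UMIs. Ly6a and Ly6c1 belong to a family of near-identical genes, and how the counting shared reads among them is uncertain. Decorin (Dcn), the gene with the most UMIs in cluster 7 after Malat1 when ribosomal and mitochondrial genes are set aside, was found in all 343 cells. Its level of 171 and 212 compares with 73.5 and 90.1 in cluster 8, 51.2 and 45.2 in cluster 5 and 12.0 and 10.3 in cluster 6. Of the genes nearest the limit of 2 times over the stromal clusters, Nid1, Smim5 and Ntn1 were just inside (2.03 to 2.04) and Anxa4, Heg1 and Cd248 just outside (1.95 to 1.96).

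The start regions of 3 of these genes are shown: Myoc, Dpt and Fmod, which all lie on chromosome 1. They are RefSeq windows on GRCm38.p6 from 250 bases before to 50 bases after the transcription start, 5′ to 3′ on the strand of the gene, for chr1:162638900-162639199 (Myoc, plus strand), chr1:164796413-164796712 (Dpt, plus strand) and chr1:134037004-134037303 (Fmod, plus strand). Capitals mark TATAAA and CATCTG, the reverse complement of the E-box letters CAGATG.
Myoc: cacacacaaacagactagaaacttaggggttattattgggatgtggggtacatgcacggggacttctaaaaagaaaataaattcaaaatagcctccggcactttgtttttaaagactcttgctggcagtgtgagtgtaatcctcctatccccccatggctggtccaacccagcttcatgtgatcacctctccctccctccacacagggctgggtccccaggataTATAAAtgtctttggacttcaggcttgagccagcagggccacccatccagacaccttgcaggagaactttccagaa
Dpt: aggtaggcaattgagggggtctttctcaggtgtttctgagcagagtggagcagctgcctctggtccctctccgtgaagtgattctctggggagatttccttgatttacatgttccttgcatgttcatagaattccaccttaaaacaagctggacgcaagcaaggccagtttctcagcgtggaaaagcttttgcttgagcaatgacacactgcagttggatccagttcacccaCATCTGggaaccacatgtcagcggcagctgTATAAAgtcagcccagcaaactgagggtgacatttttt
Fmod: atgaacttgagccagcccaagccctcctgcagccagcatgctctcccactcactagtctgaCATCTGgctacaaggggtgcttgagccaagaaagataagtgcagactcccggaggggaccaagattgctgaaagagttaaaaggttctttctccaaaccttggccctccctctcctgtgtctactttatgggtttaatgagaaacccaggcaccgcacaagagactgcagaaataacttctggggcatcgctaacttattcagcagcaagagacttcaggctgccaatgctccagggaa

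In the Myoc window TATAAA begins 26 bases before the start, and in the Dpt window it begins 13 bases after it. Of the 72 genes, 44 had a window, and TATAAA on either strand occurred in 11 of them (25%) against 15.7% of all 27025 genes with a window. CAGATG on either strand was present in 10 of the 44 (22.7%) and in 19.2% of all genes. The GLI core letters GACCACCCA occurred in 1 of the 44 (Ank2), in 0 of 11 Hedgehog pathway genes with a window and in 0.289% of all genes. These are matches of letters in short windows and were not tested.

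Genes of fibrillar collagens had their highest stromal levels in cluster 7, although a minority of its cells held much of the difference. All 6 fibrillar collagen genes at a level of 0.5 in any stromal cluster (Col1a1, Col1a2, Col3a1, Col5a1, Col5a2 and Col11a1) had their highest stromal level in cluster 7 in both libraries. Among all 4198 genes at that level, 22.5% did so. The median log2 difference of the 6 to the other stromal clusters was 1.43, against 0.02 for all genes, and 2 of the 6 (Col1a2 and Col11a1) reached 2 times over every cluster, beside 1.72% of all genes at level. Summed over the list, the level was 42.5 in B6129PF1/J and 32.6 in C57BL/6J, while clusters 5, 6 and 8 lay between 10.5 and 18.0. Col1a2, the partner chain of type I collagen, had 15.1 and 12.0. Col3a1, the collagen of distensible tissue, had 11.1 and 8.0. The 136 and 129 cells without Tnmd, Fmod or Dpt UMIs, described below, had Col1a1 at 6.99 and 7.24 and Col3a1 at 7.89 and 4.64, values near those of cluster 8 for Col1a1 (5.82 and 6.05) and of cluster 6 for Col3a1 (7.30 and 4.5). Of the collagens that attach to fibrils or form other networks, Col12a1 (0.601 and 0.919) and Col8a2 (1.22 and 0.817) passed the rule, out of 11 at level. Basement membrane collagens behaved otherwise: Col4a1 was 0.930 and 0.664 in cluster 7 and 2.97 and 1.81 in cluster 6.

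**Figure D2:**
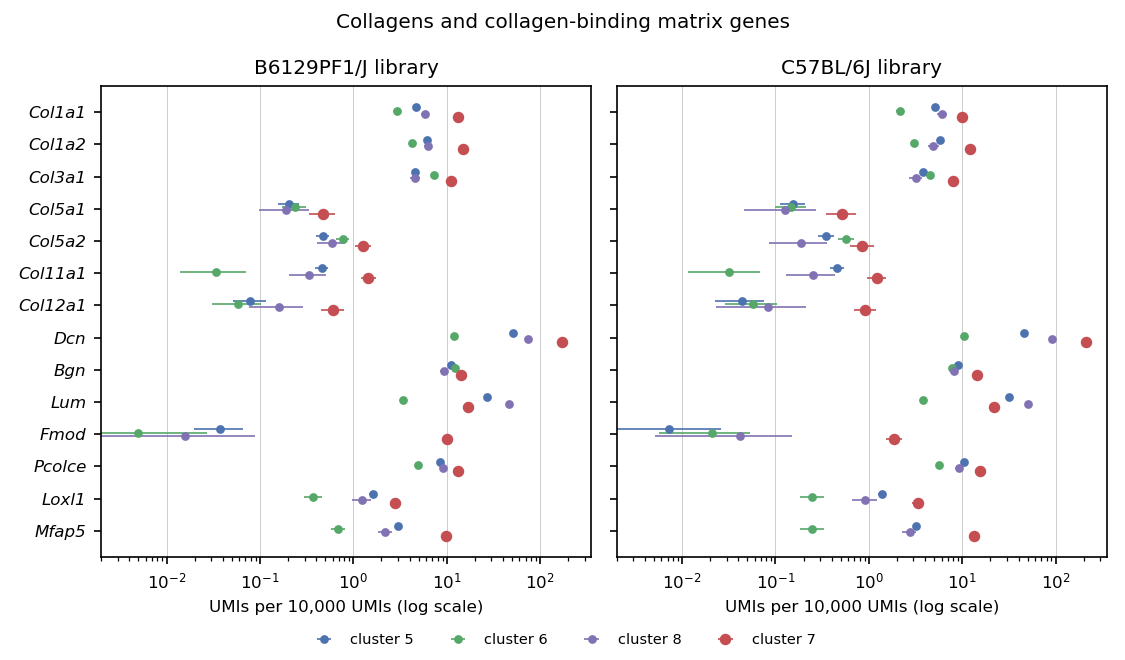
Levels (UMIs per 10,000 UMIs, log scale) of collagens and genes that bind or process them, 1 panel per library, with clusters 5 to 8 as points and exact Poisson 95% intervals as bars. Cluster 7 (red) is highest for all 7 collagens shown and for Dcn (171 and 212) but lies below clusters 5 and 8 for Lum (17.1 and 21.9).

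Genes for collagen processing followed with smaller differences. None of the 13 at level was 2 times higher, yet 10 had their highest stromal level in cluster 7, and the median log2 difference was 0.86. Examples are Pcolce, which enhances removal of the collagen propeptide (13.2 and 15.5, against at most 10.5), Loxl1, a cross-linking oxidase (2.81 and 3.34, against at most 1.62), and Serpinh1, the collagen chaperone (8.11 and 9.28, against at most 7.80). Small leucine-rich proteoglycans split within the family. Dcn, Bgn, Fmod, Omd, Prelp and Chad were highest in cluster 7, 6 of 11 at level, whereas lumican (Lum, 17.1 and 21.9) was lower than in cluster 8 (46.4 and 51.0) and asporin (Aspn, 2.58 and 3.49) was lower than in cluster 6 (14.1 and 15.4). Of 16 matricellular genes at level, Comp, Thbs1, Thbs4 and Smoc2 were 2 times higher and 10 were highest. Of 12 elastic fiber genes, Mfap5, which encodes a microfibril glycoprotein, was 2 times higher (9.83 and 13.4, against at most 3.22). Elastin itself (Eln) was 1.38 and 1.06 beside 1.16 and 1.06 in cluster 5. Of 10 protease and inhibitor genes, Adamtsl3 was higher and Adamts1 lower. Of all 4198 genes at level, 1.72% were 2 times higher in cluster 7, 1.43% were 2 times lower and 22.5% were highest there.

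The tendon and ligament list had a median log2 difference of 4.07 over its 8 genes at level. Tnmd, Thbs4, Fmod and Comp were 2 times higher, Mkx and Chad were highest as well, and Egr1, an immediate-early gene that tendon shares with other tissues, was lowest. The list of fibroblast subtype genes, known as markers of fibroblasts of other organs, had 11 genes at level and a median log2 difference of 3.15. Of these, Pi16, Cd34, Ly6a, Ly6c1, Clec3b, Dpt and Sema3c were 2 times higher and 10 of 11 were highest. Chondrocyte and osteoblast genes did not follow: of 7 at level 0 were higher, and Alpl, Spp1, Mgp and Pth1r were lowest in cluster 7. Osteopontin (Spp1) had 1.61 and 3.80 in cluster 7 and 84.1 and 108 in cluster 6. Of all 4198 genes at level, 1.72% were 2 times higher in cluster 7, 22.5% were highest and 15.0% were lowest there. Within the fibroblast subtype list, the 17 and 14 cells with Dpt, described below, held much of some genes. They had 61.3% and 84.2% of the Pi16 UMIs of cluster 7, 67.9% and 94.0% for Clec3b and 76.9% and 91.1% for Ly6c1. For Cd34 the shares were 34.1% and 46.7%.

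The genes that lead the cluster were spread unevenly over its cells. With cells thinned to 1700 UMIs, the variance of a gene divided by its mean was 1.03 for the median gene in both libraries and 1.82 and 1.86 at the 95th percentile. Apod (84.8 and 61.2), Malat1, Chil1 (24.5 and 18.8), Gsn, Mgp, Myoc (13.3 and 13.9), Dcn, Pi16 (8.85 and 28.0), Apoe and Trf had the highest values. Myoc was found in 44 of 185 and 43 of 158 cells, and the tenth of cells with most Myoc held 88.4% and 85.6% of its UMIs. For Chil1, a chitinase-like secreted protein, that share was 88.3% and 92.9%, and for Fmod it was 99.1% and 100%.

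After these values had been seen, the cells were divided by 3 of the leading genes. Cells with a Tnmd or Fmod UMI numbered 33 of 185 (17.8%) in B6129PF1/J and 15 of 158 (9.49%) in C57BL/6J. Cells with a Dpt UMI numbered 17 (9.19%) and 14 (8.86%). Only 1 cell in B6129PF1/J and 0 in C57BL/6J belonged to both, and 136 and 129 cells belonged to neither. Cells with Tnmd and cells with Fmod were largely the same ones, as 18 of 26 Fmod cells in B6129PF1/J and 6 of 10 in C57BL/6J also had Tnmd, against 7 of 159 and 5 of 148 of the other cells. The sets differ in depth, with a median of 4598.5 and 4264 UMIs in Tnmd or Fmod cells, 5635.5 and 5654 in Dpt cells and 3987 and 3174 in the remaining cells. A deeper cell is more likely to show a gene, and levels per 10,000 are given for that reason. The levels below leave out the cell with both.

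Cells with Tnmd or Fmod held all UMIs of Scx, the transcription factor of the tendon lineage, which were 17 in B6129PF1/J and 3 in C57BL/6J. Chil1 stood at 47.9 and 61.4 in them and at 6.49 and 2.92 in the cells of neither set. A few cells gave much of this level. Of 737 Chil1 UMIs in B6129PF1/J, single cells gave 242, 168 and 143. Of 408 in C57BL/6J, single cells gave 137 and 111. A Chil1 UMI was found in 19 of 32 and 9 of 15 Tnmd or Fmod cells. Chondroadherin (Chad), a leucine-rich matrix protein of cartilage and tendon, had 7.87 and 1.81 against 0.284 and 0.230. Myoc was at 20.4 and 15.0 against 3.59 and 9.84, and at 5.52 and 2.56 in the Dpt cells. Here too a few cells gave much of the level. Of 314 Myoc UMIs in B6129PF1/J, the 3 cells named for Chil1 gave 151, 72 and 54. Those cells had 10, 16 and 2 Fmod UMIs, and the cells with most Fmod (116 and 111) had 2 and 1 Myoc UMIs. Of 100 Myoc UMIs in C57BL/6J, single cells gave 54 and 23, and the cell with most Fmod (48) gave 15. A Myoc UMI was found in 12 of 32 and 8 of 15 Tnmd or Fmod cells. Thbs4 was at 14.5 and 6.77 against 1.94 and 3.54, so its difference between the sets was wide in B6129PF1/J and less than 2 times in C57BL/6J. Col1a1 was at 33.8 and 17.6 against 6.99 and 7.24 in neither set. Col3a1 was not higher there, at 4.68 and 4.66 against 7.89 and 4.64. Fn1 had 3.45 and 6.02 against 0.284 and 0.276, and Sfrp2, a secreted WNT-binding protein, 19.2 and 17.3 against 0.284 and 0.023. Neither gene was particular to these cells. The Dpt cells had Fn1 at 3.53 and 3.83, and Sfrp2 at 7.62 and 6.27 in 9 of 16 and 11 of 14 cells. In B6129PF1/J 1 cell held 58.0% of all Sfrp2 UMIs of cluster 7, and in C57BL/6J 1 cell held 28.8%.

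Cells with Dpt had the reverse proportion of the 2 collagens, with Col3a1 at 42.2 and 27.5 and Col1a1 at 17.6 and 17.0. Pi16 was at 60.9 and 141 in them, against 4.07 and 4.25 in the cells of neither set. Clec3b, which encodes the plasminogen-binding tetranectin, was found in all 17 and all 14 Dpt cells, at 23.6 and 27.3 against 1.18 and 0.345. H19 was at 8.50 and 9.64 against 0.0334 and 0.276. Pthlh, the parathyroid hormone-like peptide, was at 6.40 and 7.90 against 0.618 and 0.138, and the surface peptidase gene Dpp4 at 0.883 and 2.90 against 0.0167 and 0. Ly6c1 was at 10.3 and 13.1 against 0.467 and 0.253, Ly6a at 22.0 and 31.0 against 4.39 and 5.54, and Cd34 at 17.2 and 20.3 against 4.17 and 4.14. Gelsolin (Gsn) was at 226 and 129 against 62.2 and 49.1. These genes were higher in the Dpt cells of both libraries. The sets and the genes were chosen after their values had been seen, so this is a description and no test. The intervals do not cover the spread between cells.

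Several genes of the cluster were not detected in the Dpt cells. The 16 and 14 Dpt cells had 0 UMIs of Thbs4, Chil1, Cyp26a1, Slc47a1, Mgarp, Perp, Sostdc1, Gm973 and Sfrp1, which allows a level of up to 0.407 and 0.429 for each. Over the cells of neither set, Slc47a1, an organic cation transporter, stood at 1.15 and 1.26, Perp, a desmosomal protein, at 1.30 and 1.24 and the retinoic acid carrier gene Crabp2 at 1.20 and 1.20. Crabp2 had 1 UMI and 2 UMIs in the Tnmd or Fmod cells and 1 and 0 in the Dpt cells. Gli1 had 28 of its 29 UMIs in B6129PF1/J and 14 of 21 in C57BL/6J in the cells of neither set, a level of 0.467 and 0.322. The Tnmd or Fmod cells had 1 and 6 Gli1 UMIs, a level of 0.0650 and 0.903, and the Dpt cells 0 and 1. The order of the sets for Gli1 was thus not the same in the 2 libraries. Ptch1 had 50 of 55 and 32 of 36 UMIs in the cells of neither set. Those cells held 599161 of the 849195 and 435019 of the 587561 UMIs of the cluster. The Ptch1 level was 0.83 and 0.74 in them and 0.33 and 0.45 in the Tnmd or Fmod cells, from 5 and 3 UMIs. Igfbp6 (15.3 and 15.3) and Nbl1 (13.2 and 9.84), an antagonist of bone morphogenetic proteins, were present in the cells of neither set too. Lum was lower in Tnmd or Fmod cells (7.41 and 11.4) than in cells of neither set (18.5 and 23.1).

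With the cells of both sets left out, 63 genes were higher than in clusters 5, 6 and 8, and 50 of them were among the 72. Against all other clusters 26 genes were higher, 21 of them among the 35.

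Of 9 WNT pathway genes at level, the antagonists Sfrp1, Sfrp2 and Dkk2 were 2 times higher, 3 of 9 beside 1.72% of all genes at level. Other signaling lists held at most 1 such gene. Dkk2 stood at 1.73 and 1.91, against at most 0.878 in other stromal clusters. Of 12 TGF-β and BMP pathway genes, Tgfb3 was higher (1.97 and 2.35, against at most 0.784), and Fst, Bambi and Id3 were lowest. Of 8 genes of the IGF system only Igfbp6 was higher, and Igf1 was lowest at 1.26 and 0.936. Among 8 retinoid genes Crabp2 was higher (0.871 and 0.919, against at most 0.251), and Cyp26a1, which degrades retinoic acid, was at 0.871 and 2.08, against at most 0.0686. No gene of the 10 growth factor and receptor genes at level passed the rule. Slc47a1 was the only one of 5 meningeal and barrier fibroblast genes to do so, and Ly6a the only one of the study's 4 mesenchymal stem cell surface markers. Of 17 patterning transcription factors at level, Meox1 was higher (0.754 and 0.851, against at most 0.237), and Tcf21 and Tfap2b were lower. Neither of the 2 cell cycle genes at level, Pcna and Mcm6, was higher.

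For the Hedgehog pathway 4 of 16 genes in the tables reached a level of 0.5, and 0 of the 4 were 2 times higher in cluster 7. Ptch1, the receptor and a pathway target, had 0.648 and 0.613 beside 0.601 and 0.473 in cluster 5. The co-receptor gene Gas1 had 6.32 and 4.88 beside 3.34 and 4.31 in cluster 6. Below the limit, the co-receptor genes Boc (0.412 and 0.443, against at most 0.105) and Cdon (0.200 and 0.221, against at most 0.0475) and the ligand-binding antagonist Hhip (0.294 and 0.357, against at most 0.0945) differed most from the other stromal clusters. Ihh itself was near 0 (0.0118 and 0.0170), and Dhh had 0 UMIs in cluster 7.

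In the other direction, 60 of 2217 genes at level in clusters 5, 6 and 8 (2.71%) were at least 2 times lower in cluster 7 than in each of them in both libraries. Tcf21, a transcription factor of stromal progenitors, had 5 and 2 UMIs in cluster 7, a level of 0.0589 and 0.0340 against 0.870 and 0.863 in the nearest cluster. Cxcl10, Adamts4, Pcsk1n, Fam150b, Des, Cxcl1, Gm12216, Plac8 and Rasd1 followed. Desmin (Des), an intermediate filament of contractile cells, had 0.377 and 0.391 against at least 1.88. Cxcl12, which retains stem cells and leukocytes, was at 5.86 and 4.94 and lay between 12.0 and 22.4 in the other stromal clusters. Cxcl1, a neutrophil attractant, was at 1.80 and 0.919, against at least 5.97. Of 12 chemokine and complement genes at level these 2 passed the rule, beside 1.43% of all genes. Of the 12, 7 were lowest in cluster 7, and C1ra, Cd55 and Serping1, the C1 inhibitor (12.7 and 11.8), were highest.

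All 12 immediate-early and heat shock genes at level had their lowest stromal value in cluster 7 in both libraries. Among all 4198 genes, 15.0% did. The median log2 difference was -1.25, and 3 of the 12 (Junb, Atf3 and Nr4a1) passed the rule of 2 times, beside 1.43% of all genes at level. Fos stood at 31.9 in B6129PF1/J and 20.4 in C57BL/6J, and the other stromal clusters lay between 47.6 and 78.6. Junb stood at 24.7 and 11.5, and the others lay between 49.4 and 61.0. Summed over the list, cluster 7 had 120 and 73.6, the other stromal clusters 198 to 277, and RPE 8.35 and 7.68. The direction was the same in both libraries, and the level of cluster 7 was lower in C57BL/6J. Within the cluster, Junb was at 29.3 and 12.5 in cells of neither set, 14.2 and 7.07 in Tnmd or Fmod cells and 12.6 and 10.2 in Dpt cells. Cluster 7 also had the highest mitochondrial share of the stromal clusters and more UMIs per cell, and their part in this result was not tested.

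**Figure D3:**
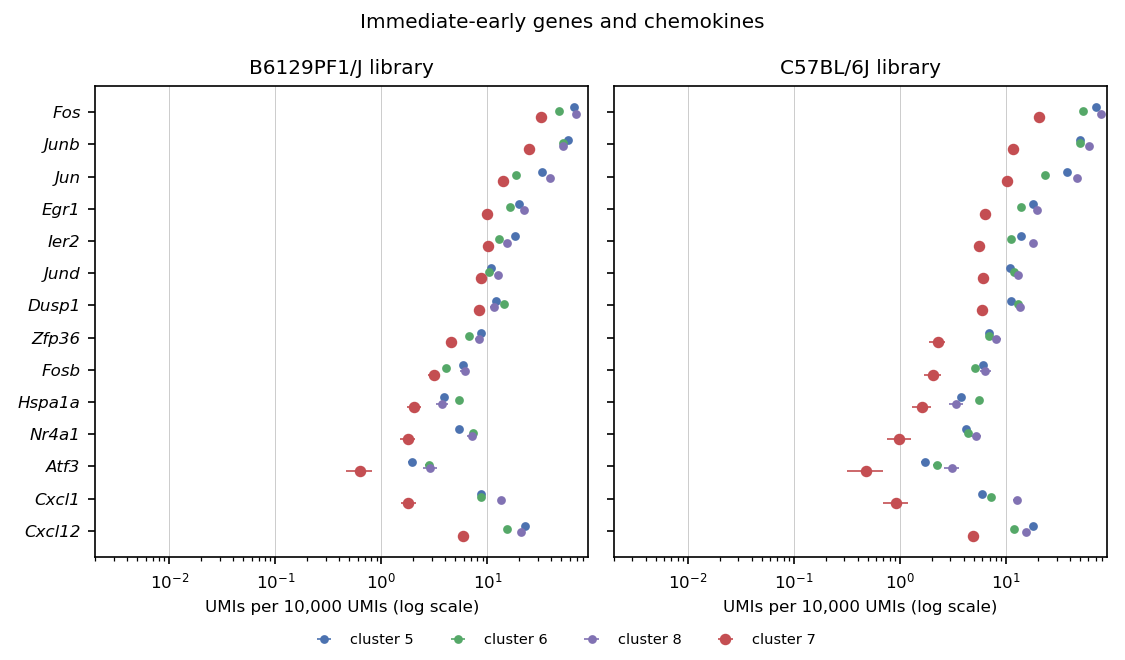
Levels (UMIs per 10,000 UMIs, log scale) of immediate-early genes and 2 chemokine genes, 1 panel per library, with clusters 5 to 8 as points and exact Poisson 95% intervals as bars. Cluster 7 (red) is leftmost in every row, for example for Junb at 24.7 and 11.5 and for Cxcl12 at 5.86 and 4.94.

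Btg2, an antiproliferative gene induced by stress and growth signals, belongs to the lower group, at 4.91 and 2.98 against at least 11.2. Its window (chr1:134079106-134079405 on GRCm38.p6, minus strand) is printed because it holds the cyclic AMP response element letters TGACGTCA, in capitals, 166 bases before the start.
Btg2: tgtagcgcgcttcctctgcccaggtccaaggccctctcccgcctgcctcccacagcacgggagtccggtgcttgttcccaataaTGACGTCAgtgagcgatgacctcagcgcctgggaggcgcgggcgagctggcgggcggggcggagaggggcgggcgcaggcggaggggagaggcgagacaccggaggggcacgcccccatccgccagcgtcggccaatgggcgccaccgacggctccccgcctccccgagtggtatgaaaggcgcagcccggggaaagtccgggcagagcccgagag
TGACGTCA was found in 2 of 43 lower genes with a window (4.65%, Errfi1 and Btg2) and in 2.03% of all genes. The AP-1 letters TGACTCA, on either strand, were found in 4 of the 43 (9.30%) and in 5.95% of all genes.

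By overall profile cluster 7 was closest to clusters 5 and 8. Across 7032 genes, which are not independent replicates, the correlation of log2 levels was 0.942 and 0.935 with cluster 5, 0.937 and 0.932 with cluster 8 and 0.861 and 0.853 with cluster 6. With other clusters it lay between 0.615 and 0.791. Relative to cluster 5 alone, 127 of 2785 genes (4.56%) were at least 2 times higher and 150 of 2806 (5.35%) at least 2 times lower in both libraries. The lower genes with the largest folds were Coch (0.0236 and 0.0170, against 0.803 and 1.57 in cluster 5), Tcf21, Pcsk1n, Col23a1 and Nnat. The 10 higher genes with the largest folds were Myoc, Fmod, Thbs4, Smoc2, Adamtsl3, Dpt, Chil1, Pi16, Fn1 and Tnmd. Smoc2, a calcium-binding matricellular protein, had 2.79 and 2.04 against 0.0189 and 0.00722 in cluster 5.

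Markers of other cell classes were low in cluster 7, except for the pericyte gene Rgs5. Of the 10 mural markers, 0 were highest in cluster 7 and their summed level was 11.9 and 12.0, against 7.37 and 6.55 in cluster 5, 125 and 116 in cluster 6 and 294 and 305 in smooth muscle cells. Rgs5 made most of it, at 9.36 and 8.92, and was present in 58.4% and 62.0% of cluster 7 cells, against 16.5% and 15.4% in cluster 5 and 17.0% and 18.9% of hematopoietic cells. Rgs5 was detected in 56.2% and 66.7% of the Tnmd or Fmod cells and in 64.0% and 66.7% of the cells of neither set. In the Dpt cells it was found in 3 of 16 and 2 of 14, a share near that of the hematopoietic cells. Those few cells held 184 and 75 Rgs5 UMIs, so the level over all Dpt cells was 20.3 and 8.71. It was 14.2 and 6.77 in the Tnmd or Fmod cells and 6.56 and 9.29 in the cells of neither set. Other mural markers stayed low, with Kcnj8 at 0.342 and 0.187 and Notch3 at 0.212 and 0.204, and Mcam was at 0 in C57BL/6J. Summed levels were 5.04 and 8.77 for the RPE markers (5.34 to 17.1 in other stromal clusters), 1.75 and 1.62 for endothelial, 0.318 and 0.443 for melanocyte, 0.271 and 0.357 for hematopoietic and 0.224 and 0.306 for Schwann cell markers. Sox10 of Schwann cells was at 0 in both libraries, and Ptprc of leukocytes had 0 UMIs in C57BL/6J.

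Between the 2 libraries, 63 of 3421 genes at level in cluster 7 (1.84%) were at least 2 times higher in B6129PF1/J and 60 (1.75%) at least 2 times higher in C57BL/6J. With median-of-ratios scaling the split was 65 against 35. Strain, mice and library cannot be told apart. Keratocan (Kera), a keratan sulfate proteoglycan best known from the cornea, had 239 UMIs in B6129PF1/J and 0 in C57BL/6J. Its level of 2.81 was 55.1 times the limit of 3 UMIs in C57BL/6J. It had 0 UMIs in clusters 5, 6 and 8 of both libraries, and 97.9% of its UMIs were in the Tnmd or Fmod cells. Ptx4 (63 UMIs against 1), Gpha2 (118 against 4), Prg4 (67 against 0), Angptl7 (80 against 4) and Cilp2 (51 against 3) had the same direction, and the Tnmd or Fmod cells of B6129PF1/J held 98.4%, 99.2%, 77.6%, 82.5% and 96.1% of their UMIs. For Gpha2 1 cell gave 59 of the 118 UMIs. Fmod was 5.39 times higher in B6129PF1/J (interval 4.42 to 6.64), while Tnmd stood at 2.23 and 2.30. In C57BL/6J 1 cell gave both 43.6% of the Fmod UMIs and 52.6% of the Tnmd UMIs. These cells made up 17.8% of the cluster in B6129PF1/J and 9.49% in C57BL/6J, and with them left out 62 and 55 genes differed, 43 and 37 of them among the 63 and the 60.

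Other differences were not particular to the cluster. Gm10116 (22.3 and 0.494) was also at 17.2 and 0.458 in the other stromal clusters together, and Gm10709, Gm8797 and Gm26825 likewise differed there. Their symbols are of predicted genes that can share reads with near-identical copies, so these values are uncertain. Connective tissue growth factor (Ctgf) was 12.95 and 2.81 in cluster 7 and was also higher in B6129PF1/J in clusters 5, 6 and 8. In all, 13 of the 63 and 6 of the 60 genes differed at least 2 times in the same direction in the other stromal clusters together. In C57BL/6J single cells gave a large share of the 3 largest differences. Of 139 Ccl2 UMIs (6 in B6129PF1/J) 96.4% were in 1 cell, of 298 Igfbp2 UMIs (22 in B6129PF1/J) 66.1% were in 1 cell, and of 40 Sfrp5 UMIs (0 in B6129PF1/J) 40.0% were in 1 cell. Rpgrip1 (0.130 and 0.528) and Pard3b (0.177 and 0.545) followed. Pi16, at 10.6 and 24.6, was higher in C57BL/6J in the Dpt cells, which held 61.3% and 84.2% of its UMIs at a level of 57.3 and 141. In the other cells Pi16 stood at 4.64 and 4.55. Cyp26a1 was 2.38 times higher in C57BL/6J (1.77 to 3.23).

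**Figure D4:**
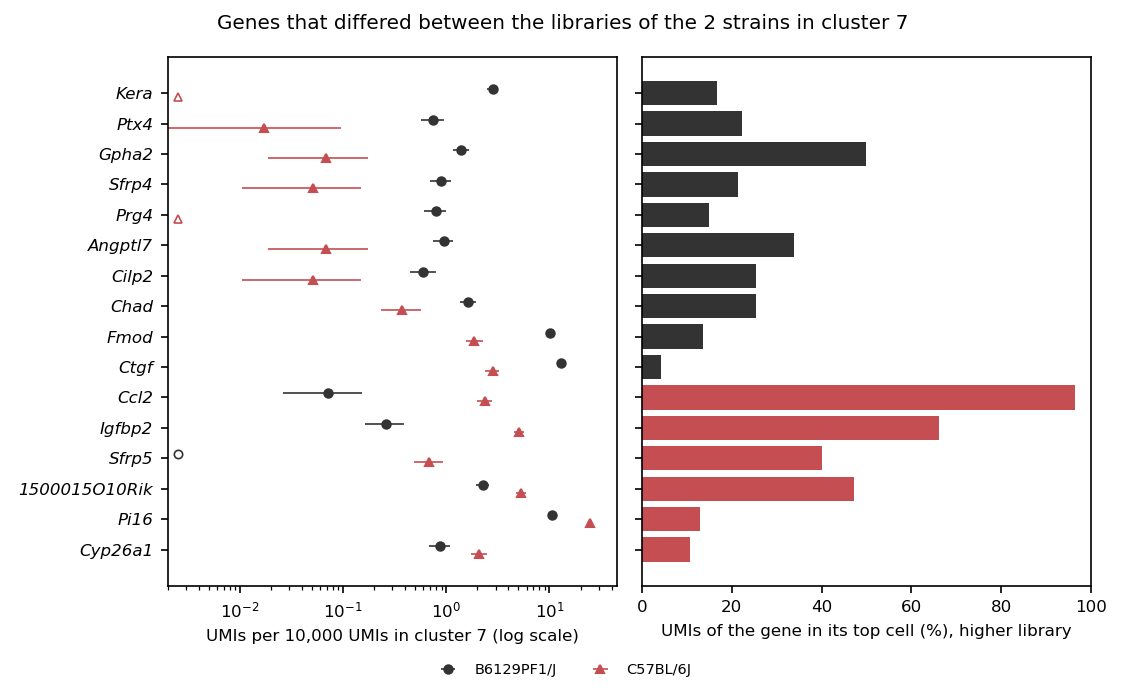
Left, levels in cluster 7 (UMIs per 10,000 UMIs, log scale) of 16 genes in the B6129PF1/J (circles) and C57BL/6J (triangles) libraries, with exact Poisson 95% intervals as bars and open points for 0 UMIs. Right, the percentage of UMIs of each gene that its top cell gave in the library where it was higher, from 96.4% for Ccl2 to the small share of Ctgf.

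In the bulk experiments the genes of cluster 7 can be followed as the authors' mean FPKM of 3 libraries, without a measure of spread. The targeted gene Ihh had 1.53 FPKM in Ihh+/+ tissue and 0.454 in IhhiΔEC/ΔiEC tissue. In whole tissue, fewer cells of a type and less RNA per cell cannot be told apart. The 72 genes were chosen against clusters 5, 6 and 8 alone, and 35 of them also passed against every other cluster. Whole tissue holds RNA of these genes from other cells too. For Chil1, RPE held 558 and 394 UMIs in B6129PF1/J and C57BL/6J, beside 1126 and 535 in cluster 7. The tissue values are therefore not those of cluster 7 alone. Of the 72 genes, 68 were in the tables and 66 had at least 1 FPKM in the Ihh comparison. Their median log2 ratio of deleted over Ihh+/+ tissue was -0.25, and that of all genes was -0.04. Comp (9.38 in Ihh+/+, 4.65 in IhhiΔEC/ΔiEC), Smoc2 (7.11 and 3.43) and Egfr (4.73 and 2.35) were at least 2 times lower, 3 of 66 genes beside 0.745% of all 11411. Their ratios of 2.02, 2.07 and 2.01 lie close to that limit, and with 1 FPKM added to both averages 0 genes passed it. Penk (7.43 and 23.3), which encodes proenkephalin, was higher by at least 2 times, 1 of 66 beside 1.1% of all genes. Collagens were lower by less than that, with Col1a1 at 95.5 and 55.1, Col1a2 at 96.0 and 58.0 and Col3a1 at 33.6 and 20.7. Tnmd had 6.65 and 3.66, Pi16 had 32.0 and 32.0 and Myoc had 219 and 172. Gli1 itself was at 9.40 and 3.15, Ptch1 at 7.69 and 4.98 and Hhip at 1.05 and 0.346. Of the 60 genes that are lower in cluster 7, 53 had at least 1 FPKM. Of these, 7 (Rasd1, Errfi1, Atf3, Btg2, Gem, Cdkn1a and Nr4a2) were at least 2 times higher in IhhiΔEC/ΔiEC tissue, beside 1.1% of all genes. At least 2 times lower were 0, beside 0.745%. The list as a whole was not higher, with a median log2 ratio of -0.07 against -0.04 for all genes.

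In cultured GLI1+ cells some genes of the cluster were abundant and others were near 0. With DMSO, Tnmd had 137 FPKM, Fmod 224, Thbs4 97.8, Comp 42.4, Fn1 939.6 and Col1a1 1555. Myoc (0.154), Shisa3 (0.009) and Chad (0.0527) were near 0, Slc47a1 was listed at 0, and Dpt had 6.98 and Pi16 3.18. Few of the genes differed by 2 times between SAG and DMSO: of 57 with at least 1 FPKM, Sostdc1 was higher (5.57 with DMSO, 11.6 with SAG), beside 0.387% of all 10325 genes, and Crabp2 was lower (22.8 and 9.74), beside 1.18%. Of the 60 genes that are lower in cluster 7, 44 had at least 1 FPKM. Of these, Id4 was at least 2 times higher with SAG, beside 0.387% of all genes. Cxcl10, Plac8 and Isg15 were at least 2 times lower, beside 1.18%. The median log2 ratio of SAG over DMSO was -0.01 for the 57 genes and 0.06 for all genes. Tnmd was at 137 and 148, Fmod at 224 and 205 and Comp at 42.4 and 38.2, while the targets Gli1 (0.028 and 3.65) and Ptch1 (1.13 and 10.1) were higher with SAG.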

How the data were processed

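RPE/choroid cells of 2 mouse strains were profiled by droplet-based scRNAseq, and bulk RNAseq was done on Ihh tissue and GLI1+ cells. The scRNAseq values are raw UMI counts per gene and cell, which the authors made with Cell Ranger on mm10 and deposited with the cluster number of each cell from Seurat 2.1. The deposited fraction of mitochondrial UMIs per cell is the authors', and it is printed as a percentage of the cell's UMIs. The authors' limits of 1700 UMIs, 600 genes and 10% mitochondrial UMIs left out 0 of the deposited cells. Bulk FPKM values are averages over the 3 libraries of a group, which the authors computed with Cufflinks 2.0.2 after STAR 2.4.0f1 and deposited; values of single libraries were not analysed here. The same files hold the authors' log2 fold changes and adjusted p-values and, for clusters, average levels and fold differences; none of these was used. EC libraries of other organs were not used here.

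UMIs were summed per cluster and library and divided by the total UMIs of the cluster in that library (17168578 and 15230413 UMIs in all, 16426 genes). Levels carry exact Poisson, shares Clopper-Pearson and ratios conditional binomial 95% intervals, which cover counting error only, and a count of 0 was taken to allow 3 counts. With 1 library per strain no test was made. In list medians, cluster 7 was compared with clusters 5, 6 and 8 together. Bulk ratios are of the averages as deposited, for genes that reached 1 FPKM in either group; only their median log2 ratios used averages plus 0.1 FPKM.

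Genes were named when they were markers of the cluster, among the 20 highest and 10 lowest against clusters 5, 6 and 8, the 10 with most UMIs, the 10 highest and 5 lowest against cluster 5, the 5 most different between strains in each direction, the 10 most uneven between cells, or members of 22 gene lists and 7 lists of markers of other cells. The photoreceptor list is not reported here. The cluster, these lists and the rules were chosen with earlier results of these data known. Cells with Tnmd, Fmod or Dpt, and other genes named with them, were chosen after their values were seen. Positions are from GENCODE on GRCm38, the assembly that mm10 names. The rules were tested on simulated data. The simulated counts had counting error only and no spread between cells, so that test does not cover genes that are uneven between cells. The software was numpy 2.4.6, pandas 2.3.3, scipy 1.17.1 and matplotlib 3.10.9 under Python 3.11.15.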

Additional observations from a re-analysis of the deposited data

How the results depend on the processing

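No paired analysis was possible because each strain has 1 scRNAseq library and the bulk tables hold group averages; for the same reason no library could be left out. For the 20 highest and 10 lowest genes, all 180 folds over clusters 5, 6 and 8 recomputed under 6 settings kept their direction and stayed at 2 times or more. These genes were picked for the largest folds in the same counts, at least 8.51 and 4.56. Few could have fallen below 2 times, so this says little about the other genes. Of the 72 higher genes, 64 were still called with median-of-ratios scaling and 62 after thinning, and of the 60 lower genes 60 and 50. Of the 35 genes higher than all clusters, 32 and 14 were. Of 384 recomputed levels of genes of the cluster 296 stayed within their counting interval. The counts of genes moved by over 1.5 times as follows. A fold of 3 gave 24 lower genes, 18 higher than all clusters, 27 higher in B6129PF1/J and 6 higher in C57BL/6J; a fold of 1.5 gave 144 higher, 114 lower, 63 higher than all clusters, and 195 and 272 for the strains. No minimum level gave 194, 145, 1029 and 1007, and a minimum of 1 UMI per 10,000 gave 44, 33, 22, 27 and 19. Another minimum also changes how many genes are tested, so these counts cannot be set directly against the main ones. The B6129PF1/J library alone gave 120 higher genes and 55 higher than all clusters, and the C57BL/6J library alone gave 134 higher and 107 lower. Thinning cells to 1700 UMIs gave 15 genes higher than all clusters and 123 and 154 for the strains, and median-of-ratios scaling gave 35 higher in C57BL/6J. Adding 1 FPKM left 0 genes at least 2 times lower in IhhiΔEC/ΔiEC tissue and 0 higher with SAG, where no FPKM minimum gave 4. The cause was not tested. Leaving out cells with Tnmd, Fmod or Dpt was chosen after seeing the data. Genes under about 1 UMI per 10,000 rest on fewer than 100 UMIs per library, and the FPKM tables give no depth.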
